A study of Mus musculus with 10 samples.

Results

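The non-collagenous glycoproteins of the vascular basement membrane were followed in endothelial cells of mouse ear skin that did or did not express an activated form of *Pik3ca*. The set held 10 of the 46517 Ensembl genes of the count tables, chosen by name: the laminin chain genes *Lama4*, *Lama5*, *Lamb1*, *Lamb2* and *Lamc1*, the nidogen genes *Nid1* and *Nid2*, the heparan sulfate proteoglycan genes *Hspg2* (perlecan) and *Agrn* (agrin), and *Sparc*, which encodes a collagen-binding matricellular protein. All 10 were found in the tables and passed the filter on low counts in every comparison.

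A basement membrane is a thin sheet of matrix on which endothelial cells rest. Laminins are trimers of an α, a β and a γ chain that polymerize under the cell and are held by integrins and dystroglycan. Nidogens and perlecan link the laminin network to the collagen IV network, agrin binds laminin and carries heparan sulfate chains, and SPARC binds collagens and affects their deposition. Blood capillaries have a continuous basement membrane, lymphatic capillaries a thin and discontinuous one, and collecting lymphatic vessels again a continuous one.

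Mutant mice carried *Pik3caH1047R;Cdh5-CreERT2* and were Cre+. Expression of the activated kinase from the *Rosa26* locus was induced in endothelial cells, lymphatic and blood alike, by 4-hydroxytamoxifen (4-OHT, in acetone at 10 mg/ml) placed on the dorsal ear at 3 wk of age. All mice were 5 wk old when the ear skin was taken. Podoplanin and CD31 were used to sort lymphatic (LECs) and blood (BECs) endothelial cells, without CD45+, CD11b+ and Ter119+ cells, into 384-well plates for Smart-Seq2, a full-length single-cell RNA-seq method. The 5 mutant mice (7 plates) were compared with 2 control mice (1 plate each). Control 1 was C57BL/6J and had received nothing. Control 2 was Cre-, of the mutant strain, and had received 4-OHT, so the controls differed in strain history and treatment. One more control mouse was not analysed here, and neither were the transgene's own reads.

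Cells were classed by their own counts, in CPM (a gene's reads scaled to the same total for every cell or sum), with rules that used none of the 10 genes. LECs had at least 300 CPM of *Prox1*, *Flt4* and *Mmrn1* together and more of these than of *Flt1*, *Emcn* and *Podxl* together. Cells with more of the latter sum were BECs. Collecting LECs were LECs with more *Mmrn2* than *Lyve1*, and the remainder are called other LECs. Of 3456 wells 3248 were kept, which gave 1641 LECs (358 control, 1283 mutant), among them 189 collecting LECs (47 control, 142 mutant), and 1542 BECs (327 control, 1215 mutant). Another 65 cells met no rule. Reads were summed per mouse and class, so that the mouse was the replicate. The sums held 55616045 to 194353210 reads for LECs, 39610940 to 102714572 for BECs and 6271852 to 12887180 for collecting LECs.

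The sums of lymphatic and blood markers outside the rules separated the classes. The lymphatic list had 3210 to 4822 CPM in LECs and 71.0 to 464 in BECs. The blood list had 1246 to 1979 CPM in LECs and 4397 to 6310 in BECs. Within it *Kdr* did not separate them, at 517 to 779 CPM in LECs and 331 to 622.5 in BECs. *Cd34*, *Sox17* and *Plvap* were lower in the LECs of each mouse. In LECs *Cd34* was at 70 and 29 CPM in controls and 355 to 624 in mutants. *Foxp2*, a marker of collecting vessels, had 230 and 238 CPM in the controls' collecting LECs against 106 and 136 in their other LECs, and 63.4 to 275 against 15.9 to 58.7 in mutants, higher in collecting LECs in 7 of 7 mice. *Cldn11*, a marker of lymphatic valves, went the other way in controls, with 24.9 and 13.7 CPM in collecting and 158 and 151 in other LECs, while the mutants had 95.6 to 312 and 99.3 to 258. The fibroblast, mural and Schwann cell lists were higher in LECs of both controls than of any mutant. The fibroblast list (*Col1a1*, *Col1a2*, *Pdgfra*, *Dcn*, *Lum*) summed to 193 and 382 CPM in control LECs against 15.8 to 106 in mutant LECs, and to 570 and 769 against 12.8 to 53.8 in BECs. In LECs the mural list summed to 93.8 and 111 CPM in controls against 33.4 to 58.5, and the Schwann cell list to 26.3 and 111 against 0.575 to 17.4. The keratinocyte list overlapped, at 203 and 397 against 73.3 to 373. The immune list overlapped too, at 28.8 and 6.11 against 21.2 to 51.0 CPM. Within it *Ptprc*, the gene of the gated antigen CD45, was at 0 to 0.322 CPM in the 7 mice. *Cd68* was at 1.02 and 0.0980 CPM in controls and 11.9 to 32.9 CPM in mutants. *Lyz2* (12.65 and 4.87 against 0.650 to 7.435) and *Cd74* (14.5 and 1.11 against 2.295 to 13.9) overlapped. At least 100 CPM of 1 such list was carried by 70.5% and 35.4% of control LECs and by 16.6% to 36.8% of mutant LECs. Cycling cells made up 1.64% and 2.29% of control LECs and 13.2% to 34.2% of mutant LECs. Mutants 1 to 4 were on plates numbered 323 to 332, and mutant 5 and both controls on plates 891 to 901, so for mutants 1 to 4 the plate series and the genotype cannot be told apart. Values from mutant 5 alone are therefore given beside the main result.

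The genes lay on 9 chromosomes (GRCm38, GENCODE vM21 gene models). *Sparc* was at chr11:55394500-55423183 on the minus strand, *Nid1* at chr13:13437551-13512269 and *Nid2* at chr14:19751265-19811787, both on the plus strand. The laminin genes were at chr10:38965515-39110188 (*Lama4*, plus), chr2:180176373-180225859 (*Lama5*, minus), chr12:31265234-31329644 (*Lamb1*, plus), chr9:108479736-108490530 (*Lamb2*, plus) and chr1:153218922-153332786 (*Lamc1*, minus). *Hspg2* (chr4:137468769-137570630, plus) and *Agrn* (chr4:156165290-156197488, minus) shared a chromosome. Another gene overlapped 8.45% of the exon bases of *Nid2* (*Rtraf*) and 2.06% of those of *Nid1* (*Gm48682*), and none of those of the other members. Counting was not stated to use strand, so reads from these overlaps cannot be assigned.

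The 250 bases before the start of transcription are shown for the 3 members that changed in the comparisons of LECs and have an entry, *Sparc*, which rose in mutant LECs, and *Lamb1* and *Agrn*, which were higher in collecting LECs. They come from RefSeq (GRCm38.p6), in which 7 of the 10 members had an entry. They are given 5′ to 3′ on the gene's strand, with every GC box (GGGCGG, either strand) in capitals.
Sparc, chr11:55420081-55420330, minus strand: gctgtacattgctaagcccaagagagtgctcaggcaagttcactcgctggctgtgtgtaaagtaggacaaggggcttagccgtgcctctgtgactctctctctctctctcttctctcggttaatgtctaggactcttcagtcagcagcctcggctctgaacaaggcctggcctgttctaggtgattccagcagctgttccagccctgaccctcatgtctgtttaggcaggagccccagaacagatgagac
Lamb1, chr12:31265043-31265292, plus strand: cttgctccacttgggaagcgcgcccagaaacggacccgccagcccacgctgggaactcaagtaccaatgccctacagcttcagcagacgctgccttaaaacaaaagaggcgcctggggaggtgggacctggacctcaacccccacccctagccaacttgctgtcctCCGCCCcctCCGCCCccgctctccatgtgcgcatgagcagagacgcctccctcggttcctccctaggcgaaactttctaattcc
Agrn, chr4:156197489-156197738, minus strand: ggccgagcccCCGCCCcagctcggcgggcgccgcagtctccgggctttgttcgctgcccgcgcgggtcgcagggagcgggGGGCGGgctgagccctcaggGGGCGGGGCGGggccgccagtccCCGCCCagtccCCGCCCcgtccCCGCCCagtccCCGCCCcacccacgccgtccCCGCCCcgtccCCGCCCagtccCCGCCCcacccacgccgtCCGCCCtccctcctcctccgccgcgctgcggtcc
The windows differed widely in composition. The *Sparc* window had 54% G and C and no GC box, and that of *Lamb1* 62% and 2 GC boxes. The *Agrn* window shown had 83.6% and 12 GC boxes, of which a pair overlapped by 1 base. Another *Agrn* start, not shown, had 60.8% and 2 GC boxes. The median of all 32851 windows was 52.4%. A GC box was in 32.7% of all windows. TATAAA (12.4% of windows), CACGTG (6.02%), TGANTCA (6.75%) and GTAAACA (3.17%), searched on both strands, were in no member's window. These are matches of letters. The *Sparc* window lies inside the longer GENCODE gene model, and the end of the *Lamb1* window reaches into its model.

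*Sparc* had the highest level per length of the 10 genes in every class. Divided by the deposited gene length, its level in LECs was 325 ± 130 CPM per kilobase (SD, *n* = 7 mice), ahead of *Nid2* (83.8 ± 22.8) and *Nid1* (67.7 ± 15.1). The main laminin chains followed, *Lama4* at 43.8 ± 5.48, *Lamc1* at 42.3 ± 9.37, *Lamb1* at 38.7 ± 8.93 and *Lamb2* at 36.4 ± 5.64 CPM per kilobase. *Hspg2* (17.7 ± 4.24), *Agrn* (16.1 ± 3.65) and *Lama5* (5.72 ± 2.20) were lowest. Among neighbours in this order, *Sparc* over *Nid2*, *Lamb2* over *Hspg2* and *Agrn* over *Lama5* held in 7 of 7 mice, each with an exact two-sided sign-flip *p* = 0.0156, the lowest that 7 mice allow, and an adjusted *p* = 0.0562 over the 36 neighbour pairs of the 4 classes. No neighbours differed past an adjusted 0.05, and *Lama4* was above *Lamc1* in 3 of 7 mice.

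In BECs the order was another. *Sparc* reached 1172 ± 221 CPM per kilobase, followed by *Lamb2* (59.3 ± 9.51), *Nid1* (53.7 ± 15.4), *Hspg2* (48.7 ± 15.1), *Lama5* (37.4 ± 5.38), *Lamc1* (33.3 ± 8.12) and *Nid2* (30.6 ± 3.88). *Lamb1* (21.9 ± 6.12), *Agrn* (16.3 ± 2.70) and *Lama4* (16.1 ± 4.05) were at the bottom. *Lama5* was thus last in LECs and in the middle of the order in BECs. *Lama4*, the fourth in LECs, was level with *Agrn* at the bottom in BECs: *Agrn* was above it in 4 of 7 mice, and in the means of the controls *Lama4* (21.3) was above *Agrn* (14.2). Only *Sparc* over *Lamb2* held in 7 of 7 mice.

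**Figure D1:**
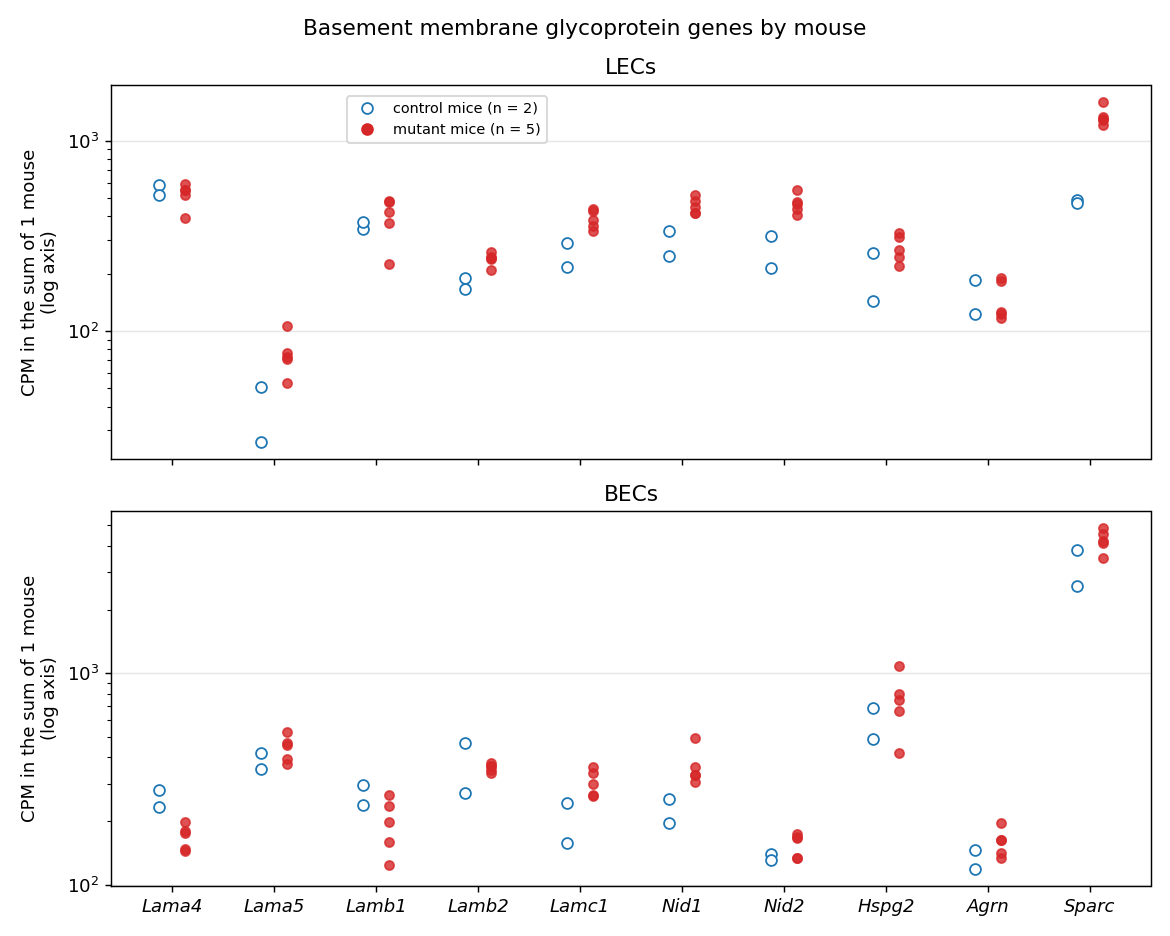
CPM of each basement membrane glycoprotein gene (vertical log axis, not divided by length) in the LEC sum (top) and the BEC sum (bottom) of each mouse, open circles for controls (*n* = 2) and filled for mutants (*n* = 5). The mutants' *Sparc* points in LECs stand at 1208 to 1598 CPM, clear of both controls, and *Lama5* lay at 26.0 to 106 CPM in LECs and at 351 to 528 in BECs.

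LECs and BECs of the same mice differed in 9 of the 10 genes, with *Agrn* the exception (edgeR, mouse as block, adjusted *p* under 0.05 over all genes tested). Of the 17657 genes tested 26.5% were called in this comparison. The α chains went in opposite directions. *Lama5*, whose chain is typical of mature blood vessels, had 26.0 to 106 CPM in the LECs and 351 to 528 CPM in the BECs of the 7 mice, which is -2.80 ± 0.203 (SE) on the log2 scale with an adjusted *p* = 1.58e-05. *Lama4*, the other endothelial α chain, had 394 to 590 CPM in LECs and 145 to 281 CPM in BECs, 1.48 ± 0.116 higher on the log2 scale (adjusted *p* = 2.28e-05). The ranges of the 7 mice did not overlap for either gene.

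The β chains followed the same pattern with smaller differences. *Lamb1* was 1.26 to 2.32 times as high in LECs as in BECs of the same mouse (log2 0.84 ± 0.110, adjusted *p* = 0.000459) and *Lamb2* 0.406 to 0.699 times (-0.70 ± 0.0957, adjusted *p* = 0.000611). *Lamc1*, the γ chain shared by most vascular laminins, differed least among the called laminin genes (0.36 ± 0.0703, adjusted *p* = 0.00491). Of the linkers, *Nid2* was 1.64 to 3.47 times as high in LECs (1.41 ± 0.131, adjusted *p* = 6.03e-05) and *Nid1* 0.978 to 1.68 times (0.35 ± 0.0918, adjusted *p* = 0.0198). *Hspg2* was 0.289 to 0.580 times (-1.44 ± 0.118, adjusted *p* = 2.80e-05) and *Sparc* 0.123 to 0.388 times (-1.95 ± 0.193, adjusted *p* = 8.40e-05) as high in LECs as in BECs. *Agrn* gave -0.03 ± 0.119 (adjusted *p* = 0.877), higher in the LECs of 2 of 7 mice. *Nid1* was called in 10 of 16 other settings and lost without control 1 (0.32 ± 0.101, adjusted *p* = 0.0516), without mutant 3 (0.34 ± 0.106, adjusted *p* = 0.0587), without mutant 5 (0.27 ± 0.0837, adjusted *p* = 0.0560), with thinned cells, without marker-bearing cells and without the block. *Lamc1* was called in 14 of 16 and lost in the last 2 of these.

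Ratios within a mouse, which do not depend on library size, showed the same shift of composition. Per length, *Lama4* to *Lama5* was 10.9 and 18.7 in control LECs and 4.93 to 9.25 in mutant LECs, but 0.630 and 0.634 in control BECs and 0.304 to 0.476 in mutant BECs. The ratio was higher in LECs than BECs in 7 of 7 mice, by 4.28 ± 0.399 on the log2 scale (SD, *n* = 7; exact sign-flip *p* = 0.0156, adjusted *p* = 0.0208 over 8 tests). *Lamb1* to *Lamb2* was higher in LECs by 1.54 ± 0.282 and *Nid2* to *Nid1* by 1.06 ± 0.439, both in 7 of 7 mice, and *Hspg2* to *Agrn* was lower by a log2 difference of -1.41 ± 0.461 in 7 of 7, each with the same exact *p* and adjusted *p*. Between genotypes, the mutant *Lama4* to *Lama5* ratios lay below both controls in LECs and in BECs. With 5 against 2 mice the lowest exact two-sided permutation *p* is 0.0952, which both reached (adjusted *p* = 0.305 over 16 tests), so this exact test could not call the difference, and no other test of the ratios was run.

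**Figure D2:**
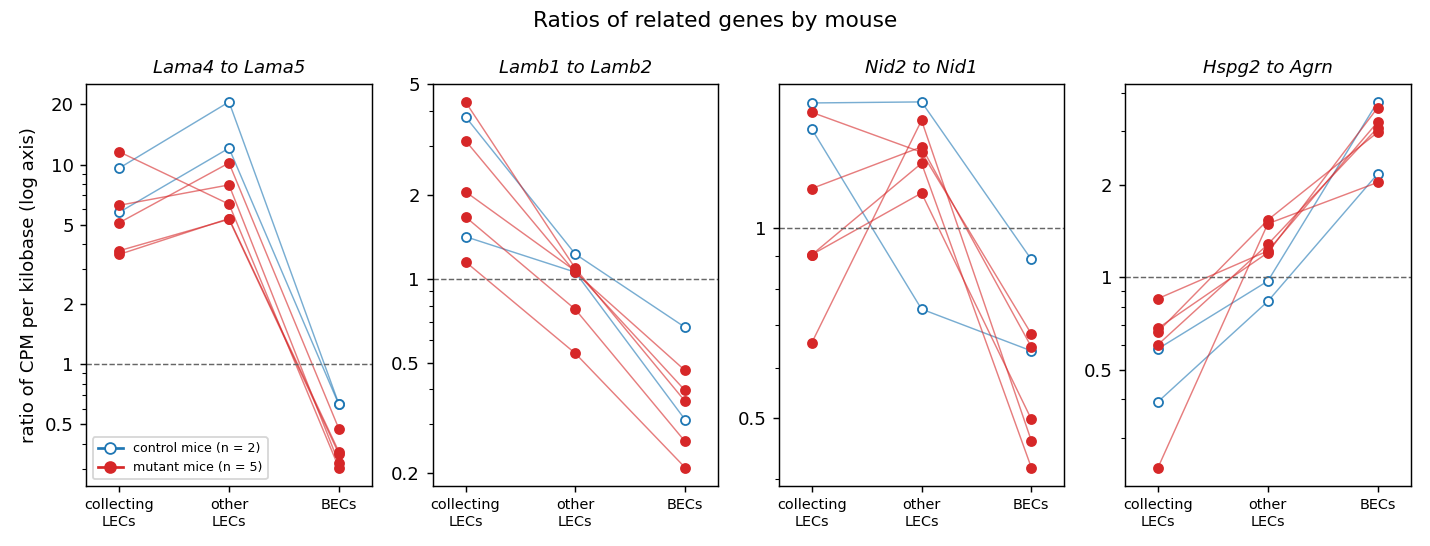
Ratio of levels per kilobase of related genes (log axis) in collecting LECs, other LECs and BECs, with a line for each control mouse (blue, open, *n* = 2) and mutant mouse (red, filled, *n* = 5). Every mouse had more *Lama4* than *Lama5* per length in both LEC classes and less in BECs, and every mouse had its highest *Lamb1* to *Lamb2* ratio in collecting LECs.

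In mutant LECs *Sparc* rose 2.88-fold over control. The level was 490 and 470 CPM in the 2 controls and 1329, 1208, 1278, 1297 and 1598 CPM in mutants 1 to 5, so the groups lay far apart. The log2 fold change was 1.53 ± 0.135 (edgeR, SE, adjusted *p* = 0.00392), and *Sparc* was the 1 of 10 genes called, where 2.76% of the 19758 genes tested were called. *P* values here measure the spread between mice, of which only 2 were controls. DESeq2 called 6 of the 10 (*Lama5*, *Lamb2*, *Lamc1*, *Nid1*, *Nid2* and *Sparc*) and 2472 of all genes, where edgeR called 546.

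The remaining genes split into those whose groups separated and those whose groups overlapped. For 6 of the 10 every mutant mouse was above both controls, which held for 12.5% of all genes tested. *Nid1* had 248 and 336 CPM in controls and 416 to 515 in mutants (log2 0.70 ± 0.150, adjusted *p* = 0.0513), and *Nid2* had 316 and 214 CPM against 406 to 550 (0.85 ± 0.198, adjusted *p* = 0.0620). *Lamc1* had 217 and 291 CPM against 337 to 437 (0.66 ± 0.155, adjusted *p* = 0.0631). These 3 missed the threshold by little.

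*Lamb2* had 190 and 167 CPM in controls and 208 to 261 in mutants (0.47 ± 0.142, adjusted *p* = 0.117). *Lama5* had 50.7 and 26.0 CPM against 53.0 to 106 (1.01 ± 0.340, adjusted *p* = 0.149), so its lowest mutant was just above the higher control. *Hspg2* overlapped, with 144 and 258 CPM against 221 to 326 (0.50 ± 0.232, adjusted *p* = 0.269), and its controls were further apart than its group means. *Lamb1* (343 and 374 CPM against 224 to 481), *Lama4* (584 and 516 against 394 to 590) and *Agrn* (123 and 184 against 117 to 189) had log2 fold changes of 0.18 ± 0.270, -0.04 ± 0.170 and -0.00 ± 0.242, and mutant 5 was the lowest mutant for each. Over the 10 genes the median log2 fold change was 0.58, and over all genes tested it was -0.01.

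*Sparc* stayed called in 16 of 18 other settings, at 1.20 to 1.92 on the log2 scale over all 18; the exceptions were the fit with the labels' replicate number as a block and the one with mutant 5 as the only mutant. Without cells carrying markers of other cell types the levels were 286 and 362 CPM in controls and 1025 to 1527 CPM in mutants (1.92 ± 0.172, adjusted *p* = 0.00483), so the difference was larger without them. With the plate series as a covariate, a fit that rests on mutant 5, it was 1.77 ± 0.124 (adjusted *p* = 0.00425). Within the plates numbered 891 to 901, mutant 5 against both controls gave 1.78 ± 0.307 (adjusted *p* = 0.201), a fit with a single mutant mouse in which the spread comes from the controls. *Lama5*, in contrast, was called once the marker-bearing cells were left out (13.5 and 24.1 CPM against 56.1 to 92.8, log2 1.98 ± 0.303, adjusted *p* = 0.0251). *Nid2* was called without control 1 (1.24 ± 0.191, adjusted *p* = 0.0466) and was not without control 2 (0.56 ± 0.173, adjusted *p* = 0.144).

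Among other LECs, that is, without the collecting class, *Sparc* had 435 and 385 CPM in controls and 1290, 1213, 1322, 1361 and 1598 CPM in mutants (log2 1.76 ± 0.148, adjusted *p* = 0.00224). *Nid2* rose too, from 301 and 212 CPM to 443, 503, 423, 488 and 554 CPM (0.94 ± 0.191, adjusted *p* = 0.0382), without overlap. These were 2 of the 10 genes, against 3.61% of the 19242 genes tested. The *Nid2* call rested on single mice: it was lost without control 2 (0.68 ± 0.178, adjusted *p* = 0.0899) and without any 1 mutant, and kept without control 1. It was also lost without cycling cells and without marker-bearing cells (0.82 ± 0.181, adjusted *p* = 0.0583). Again 6 of the 10 genes had every mutant above both controls, the 6 named for all LECs, against 13% of all genes tested.

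**Figure D3:**
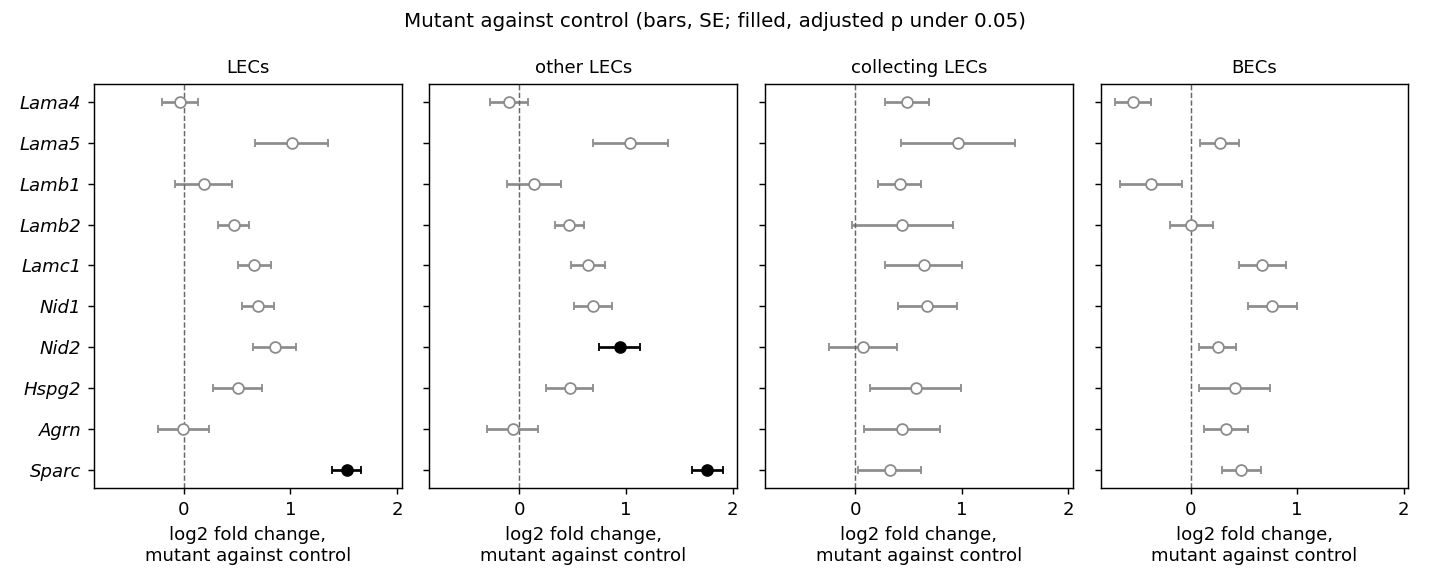
Log2 fold change of mutant over control on the horizontal axis (edgeR, bars are the SE; 5 mutant and 2 control mice) for each gene in all LECs, other LECs, collecting LECs and BECs; filled points passed an adjusted *p* of 0.05. The filled points are *Sparc* in all LECs (1.53) and other LECs (1.76) and *Nid2* in other LECs (0.94), and *Lama4* lies below 0 in BECs (-0.54).

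The rise of *Sparc* was seen in the level of the typical cell, since nearly every cell of both genotypes had a read. With each cell thinned to 50000 reads, at which 1 read is worth 20 CPM, *Sparc* had a read in 97.2 ± 0.879% of control LECs (SD, *n* = 2) and 98.6 ± 1.76% of mutant LECs (*n* = 5), and in 100% of both before thinning. The median number of *Sparc* reads per LEC was 7 in each control and 42, 23, 41, 37.5 and 78 in mutants 1 to 5. All mutants were above both controls (exact two-sided permutation *p* = 0.0952, the lowest possible). In other LECs the medians were 6 and 6 against 40, 20.5, 44.5, 42 and 81. The quartiles widened as well: the lower quartile was 3 reads in both controls and 2 to 24.3 in mutants, and the upper was 13 and 18.3 in controls and 106 to 119 in mutants. Smart-Seq2 reads carry no molecular barcodes, so reads of 1 cell are not independent molecules.

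For genes with room to rise, the share of cells with a read could also be compared. *Nid2* was found in 64.5% and 52.6% of control LECs and in 71.1% to 88.0% of mutant LECs, again without overlap and at the lowest possible exact *p* = 0.0952. *Nid1* was found in 62.3% and 77.1% against 80.8% to 94.3% and *Lamc1* in 64.5% and 78.3% against 80.2% to 90.5%, both without overlap and at the same exact *p*. The shares of *Lamb2* (63.4% and 56.6% against 58.8% to 79.3%) and *Lama5* (35.5% and 21.1% against 25.7% to 51.6%) overlapped. Those of *Lamb1*, *Hspg2* and *Agrn* overlapped too. How many of all genes had shares without overlap was not computed. Before thinning the mean shares were 85.9% and 91.8% for *Nid2*, 95.8% and 96.7% for *Nid1* and 96.1% in both genotypes for *Lamc1*. The median LEC held 2 and 1 *Nid2* reads in controls and 10 to 21 in mutants. For *Nid1* the medians were 1 and 11 against 14 to 20, and for *Lamb2* 1 and 1 against 2 to 7. The *Lamc1* medians overlapped, at 1 and 13 against 12 to 16.5. *Lama5* was too sparse for a median, at 0 reads in 6 of 7 mice.

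**Figure D4:**
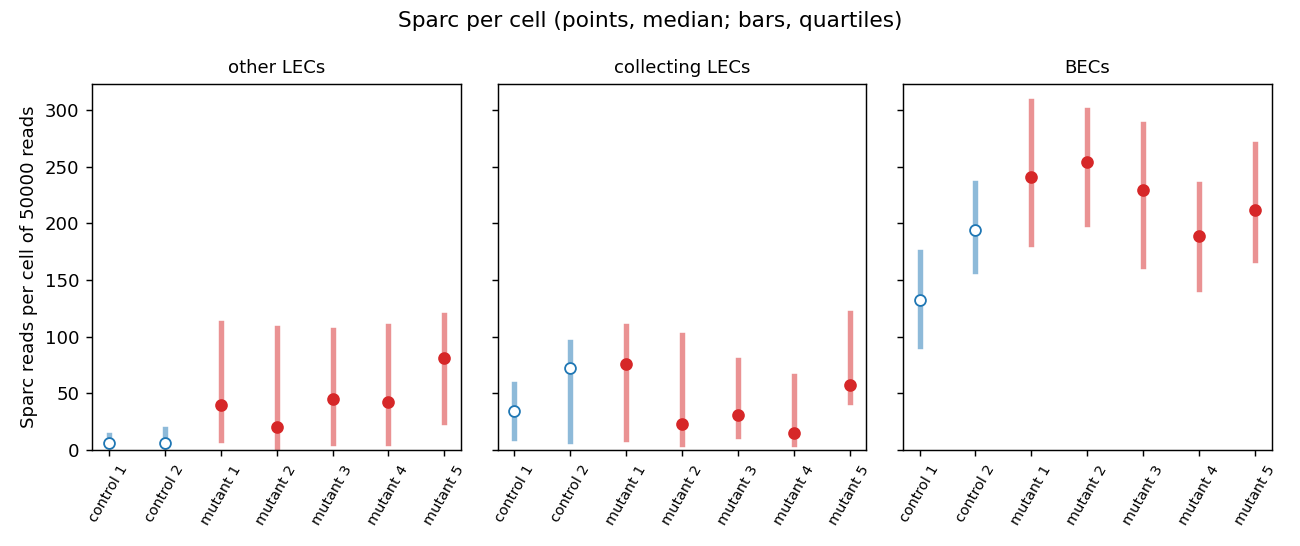
*Sparc* reads per cell after thinning each cell to 50000 reads, by mouse, for other LECs, collecting LECs and BECs; points are medians over cells and bars run between the quartiles. In other LECs the controls' medians were 6 and 6 and the mutants' 20.5 to 81, while collecting LECs overlapped and BECs were highest in every mouse.

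In BECs none of the 10 genes was called in mutant against control, where 1.87% of 19478 genes were (edgeR). At an unadjusted *p* under 0.05 there were 4 (*Lama4*, *Lamc1*, *Nid1* and *Sparc*) of the 10 and 3738 of all genes, and DESeq2 called 2 of the 10 (*Lama4* and *Nid1*) and 2148 of all. *Sparc* had 2583 and 3812 CPM in controls and 4554, 4836, 4204, 3520 and 4114 in mutants, with mutant 4 between the controls (log2 0.47 ± 0.182, adjusted *p* = 0.213). *Nid1* had 195 and 254 CPM against 332, 493, 331, 360 and 307 (0.77 ± 0.231, adjusted *p* = 0.136) and *Lamc1* had 157 and 244 against 361, 339, 261, 267 and 299 (0.67 ± 0.219, adjusted *p* = 0.159). In these 2 of 10 genes every mutant was above both controls, against 12.2% of all genes.

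*Lama4* was the 1 of 10 genes with every mutant BEC sum below both controls, a pattern found in 12.6% of all genes. It had 234 and 281 CPM in controls and 176, 180, 147, 198 and 145 in mutants (log2 -0.54 ± 0.170, adjusted *p* = 0.147). Without cells carrying markers of other cell types, which made up 85.3% and 53.7% of control BECs and 13.04% to 42.8% of mutant BECs, *Lama4* had 308 and 310 CPM in controls and 138 to 185 CPM in mutants and was called (-0.98 ± 0.178, adjusted *p* = 0.0302). *Hspg2*, at 486 and 684 CPM against 421 to 1080, had the largest ratio of the highest to the lowest mutant.

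The difference between the LEC and the BEC response was tested with the mouse as a block. None of the 10 genes was called, against 0.182% of 22000 genes, and 5 of the 10 (2484 of all genes) had an unadjusted *p* under 0.05. With all cells *Sparc* had the largest difference, 1.01 ± 0.230 on the log2 scale in the direction of a larger rise in LECs (adjusted *p* = 0.154). DESeq2 called it, among 1174 genes, and edgeR did without the marker-bearing cells (1.45 ± 0.197, adjusted *p* = 0.0283). In that setting *Lama5* was called too, with a larger difference (1.66 ± 0.225, adjusted *p* = 0.0283), against 0.79 ± 0.349 (adjusted *p* = 0.451) with all cells. *Nid2* (0.61 ± 0.195, adjusted *p* = 0.296) and *Lamb1* (0.54 ± 0.153, adjusted *p* = 0.241) were next in *p*. For *Nid1* and *Lamc1* the responses differed by -0.07 ± 0.205 and -0.05 ± 0.148.

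Within mice, *Lamb1* and *Agrn* were higher in collecting than in other LECs, 2 of the 10 genes where 2.81% of 14959 were called. *Lamb1* was 1.35 and 1.49 times as high in collecting LECs in controls and 1.63, 1.60, 1.64, 1.96 and 2.26 times in mutants (log2 0.88 ± 0.105, adjusted *p* = 0.00252). *Agrn* was 1.19 and 1.55 times as high in controls and 1.51, 1.48, 1.61, 2.27 and 3.76 times in mutants (0.96 ± 0.194, adjusted *p* = 0.0293). Both were higher in 7 of 7 mice. *Lamb1* was called in all 16 other settings. *Agrn* was called in 8 of 16 and lost, among others, without control 2 (0.99 ± 0.220, adjusted *p* = 0.0589) and without marker-bearing cells (0.81 ± 0.254, adjusted *p* = 0.165). It was kept without mutant 5. The median over all genes in this comparison was -0.21, and it moved with the setting, to -0.68 without the expression filter and 0.08 without the block.

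*Lamc1* was lower in the collecting LECs of 7 of 7 mice (0.445 to 0.975 times, log2 -0.40 ± 0.142, adjusted *p* = 0.196), a value that did not pass. The ratio of *Lamb1* to *Lamb2* was higher in collecting LECs in 7 of 7 mice, by 1.25 ± 0.520 (SD) on the log2 scale, and that of *Hspg2* to *Agrn* lower in 7 of 7, by a log2 difference of -1.16 ± 0.697 (exact sign-flip *p* = 0.0156, adjusted *p* = 0.0208 for each). *Lama4* to *Lama5* (-0.54 ± 0.687, adjusted *p* = 0.107) and *Nid2* to *Nid1* (-0.15 ± 0.650, adjusted *p* = 0.516) did not pass the same exact test. The collecting sum of mutant 5, from 13 cells, carried 1748 CPM of the fibroblast list, against at most 97.1 in any other mouse.

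*Sparc* had the opposite order in the controls and in mutants 2, 3 and 4. It was 1.86 and 2.93 times as high in collecting as in other LECs of the controls, and 1.16, 0.971, 0.695, 0.554 and 1.00 times in mutants 1 to 5, with no overlap. *Nid2* was 1.34 and 1.08 times as high in controls and 0.542 to 0.938 times in mutants. The ratios of *Lama4* (0.640 and 0.742 against 0.805 to 1.46) and *Lamb1* (given above) did not overlap either. The share of all genes with this pattern was not computed. For *Sparc* the difference of the mutant effect between the classes was -1.49 ± 0.307 on the log2 scale, with an unadjusted *p* = 0.000834 and an adjusted *p* = 0.572 over all genes. For *Nid2* it was -0.86 ± 0.251 (adjusted *p* = 0.784). None of the 10 genes, and 0% of the 19007 tested, was called for this difference by edgeR. At an unadjusted *p* under 0.05 there were 3 of the 10 (*Lama4*, *Nid2* and *Sparc*) and 1009 of all genes, and DESeq2 called *Sparc* and 344 genes in all. Without marker-bearing cells *Sparc* was called by edgeR (-2.21 ± 0.247, adjusted *p* = 0.0403). Marker-bearing cells made up 75% of the 28 collecting LECs of control 1 and 31.6% of the 19 of control 2. They were 53.85% of the 13 of mutant 5, so this call rests on sums of few collecting cells.

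Collecting LECs themselves showed no called gene in mutant against control, 0 of the 10 and 0% of 13721 tested (edgeR). There were 2 of the 10 and 1020 of all genes at an unadjusted *p* under 0.05, and DESeq2 called 0 of the 10 and 330 of all. *Sparc* had 809 and 1129 CPM in controls and 1492, 1177, 919, 755 and 1599 in mutants (0.33 ± 0.297, adjusted *p* = 0.846), so the groups overlapped. *Lama4* (395 and 394 CPM against 488 to 652) and *Nid1* (317 and 198 against 332 to 498) were the 2 of 10 with every mutant above both controls, against 6.13% of all genes. All 10 log2 fold changes were above 0, at 0.08 to 0.97, where the median over all genes tested was 0.09. In other settings *Nid2* (-0.31 at the lowest), *Hspg2* (-0.08) and *Lamb2* (-0.06) went below 0. The class was not alike in the 2 genotypes: *Cldn11* had 24.9 and 13.7 CPM in the controls' collecting LECs and 95.6 to 312 CPM in those of the mutants, without overlap. The sum of mutant 4 carried 1002 CPM of the keratinocyte list, against 36.4 to 236 in the other mice, beside the fibroblast list of mutant 5. Their part in these values was not tested. With 13 to 41 cells per mouse, the SE of these values was 0.204 to 0.533.

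**Figure D5:**
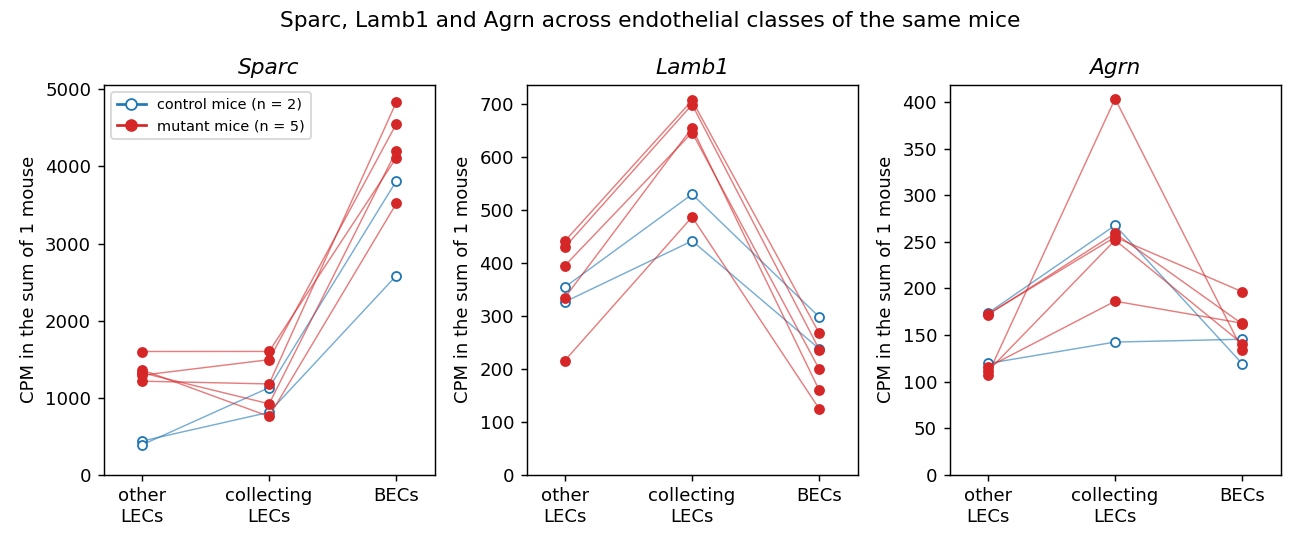
CPM of *Sparc*, *Lamb1* and *Agrn* in the sums of other LECs, collecting LECs and BECs, with a line for each mouse (blue, open, control, *n* = 2; red, filled, mutant, *n* = 5). *Sparc* was higher in collecting than other LECs of both controls, by 1.86 and 2.93 times, and near or below the level of other LECs in most mutants, while *Lamb1* and *Agrn* were higher in collecting LECs in each of the 7 mice.

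The counts of the pathway lists stand beside calls in 2.76% of all genes tested in LECs and 1.87% in BECs. Of 8 genes of basement membrane collagens 1 rose in mutant LECs, *Col4a1*, an α chain of the main vascular collagen IV (mean 499 CPM in controls, 841 in mutants, log2 0.81 ± 0.138, adjusted *p* = 0.0268), and none fell. In BECs *Col18a1*, the gene of the endostatin precursor, was the 1 of 8 called (186 to 691 CPM, 1.96 ± 0.207, adjusted *p* = 0.00628), and the response differed from that of LECs (-1.97 ± 0.192, adjusted *p* = 0.0153). The median of the list was 0.69 in LECs and 0.05 in BECs. The 6 laminin chain genes outside the set had no call with the genotype, with 5 tested in LECs and 5 in BECs.

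Of 14 genes for receptors, *Itgb1*, the β subunit shared by most laminin-binding integrins, rose in mutant LECs (646 to 1118 CPM, 0.84 ± 0.129, adjusted *p* = 0.0191), and none fell. In other LECs *Itga3*, whose product pairs with it, rose also (21.1 to 94.8 CPM, 2.20 ± 0.369, adjusted *p* = 0.0214). *Musk*, a kinase in the agrin receptor of muscle, was called lower in the mutants' other LECs (-8.65 ± 1.33, adjusted *p* = 0.0161). Its means were low, at 6.21 CPM in controls and 0.0142 in mutants. In collecting LECs its means had the other order, 0.241 CPM in controls and 3.56 in mutants. In BECs the 1 called was *Itgb4*, of the α6β4 laminin receptor (245 to 400 CPM, 0.77 ± 0.142, adjusted *p* = 0.0401). Collecting LECs had more *Bcam*, a receptor of the laminin α5 chain, than other LECs (1.31 ± 0.202, adjusted *p* = 0.00851), more *Itgb4* (0.55 ± 0.113, adjusted *p* = 0.0311) and less *Itgb1* (-0.35 ± 0.0770, adjusted *p* = 0.0423). In that comparison 11 of the 14 receptor genes were tested, and 2.81% of all genes tested were called.

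Among 20 genes of minor and matricellular proteins, 19 were tested in LECs, of which 2 rose in the mutants and none fell. *Npnt*, the integrin ligand nephronectin, went from 17.7 to 414 CPM (4.60 ± 0.309, adjusted *p* = 0.00177), and *Vwa1*, a perlecan-binding protein, from 12.1 to 57.5 CPM (2.31 ± 0.384, adjusted *p* = 0.0249). In BECs 5 of 20 tested rose and none fell, among them *Npnt* (30.8 to 184 CPM), *Hmcn1* (12.7 to 49.4 CPM), the proteoglycan gene *Bgn* (321 to 1152 CPM) and *Ecm1* (124 to 385 CPM). *Sparcl1*, the closest relative of *Sparc*, was far lower in LECs than BECs (49.5 against a mean of 2683 CPM over 7 mice). None of 14 tested genes for the folding and secretion of collagen was called with the genotype in LECs or BECs, with 3 and 6 of them at an unadjusted *p* under 0.05.

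The 5 genes most like *Sparc* over the 21 sums of collecting LECs, other LECs and BECs of the 7 mice, out of 17765, were *Cd81* (Pearson *r* = 0.926), *Egfl7* (0.918), *Anxa3* (0.915), *Iqgap1* (0.912) and *B3gnt3* (0.910), on the log2 CPM scale. The 3 sums of a mouse share its plates, and the classes set most of the spread. Within other LECs, over 7 mice, the coefficients were 0.775 to 0.965. Within collecting LECs they were -0.113 to 0.634 and within BECs -0.360 to 0.534, so the likeness did not hold in those classes. *Anxa3*, for example, had a mean of 20.4 CPM in control and 75.4 CPM in mutant other LECs, and 307 and 299 CPM in BECs.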

How the data were processed

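Endothelial cells of the ear skin of 5 mutant and 2 control mice were sequenced by Smart-Seq2 on 9 plates of 384 wells. The authors deposited raw read counts per gene and well, with gene lengths; per the labels and their methods, reads were aligned to GRCm38 with TopHat2 2.1.1, duplicates were removed and genes counted with featureCounts. The annotation version was not given in the sources used here. The 92 spike-ins were kept out of totals. Plates held 99969650 to 151812175 reads of genes, and no wells had identical counts. Cells with at least 50000 reads and 200 genes and at most 10% mitochondrial reads were kept (median per mouse, 250729 to 404517 reads) and classed as given above. Doublets were not called. Symbols were matched for 46005 of 46517 Ensembl IDs.

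Counts were summed per mouse and class, the plates of 1 mouse together, and tested with edgeR 4.0.16 (R 4.3.3; filterByExpr, TMM, glmQLFit and glmQLFTest), with Benjamini-Hochberg adjustment over all genes tested and calls at an adjusted *p* under 0.05. Comparisons of classes had the mouse as a block. The SE is the log2 fold change divided by the square root of F. Levels are CPM of the sums without TMM, and only CPM per kilobase of deposited length was compared between genes. Single values were tested by exact permutation or sign flips over mice, two-sided. Thinning drew reads without replacement. The fits were tested on simulated counts with known changes. Alternatives were DESeq2 1.42.0, its size factors in edgeR, no filter, 1 mouse left out, first plates only, thinned cells, stricter classes, cells without cycling or other-type markers, the replicate number as a block and the plate series. The 10 genes and the pathway lists were chosen with earlier results of these data known. Of each list, at most 4 called genes with the largest change are named per comparison, and the 5 genes most like the member with the lowest adjusted *p* in LECs.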

Additional observations from a re-analysis of the deposited data

Results flagged for a closer look

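Of 40 groups of mutant mice examined (10 genes in 4 classes), 2 held a mouse far from the others by Dixon's criterion, and chance flags about 1 group in 20. *Lamb1* had 486.4 CPM in the collecting LECs of mutant 5, where the other mutants had 645.8 to 706.6 CPM, a gap of 0.724 of the whole range; this sum came from 13 cells. *Nid1* had 493.2 CPM in the BECs of mutant 2, where the other mutants had 307.2 to 360.2 CPM, a gap of 0.715 of the range.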

How the results depend on the processing

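Counts of the 10 genes called moved with the setting as follows. With DESeq2, 6 were called in LECs (2472 of all genes), 6 in other LECs (2510) and 2 in BECs (2148). It called 1 for the difference of LECs and BECs (1174) and 1 for the difference of collecting and other LECs (344). Without cells carrying markers of other cell types the counts were 2 in LECs (355 of all genes) and 1 in BECs (572). They were 2 for the difference of LECs and BECs (99). Collecting against other LECs had 1 (219), and the difference of their responses 1 (2). Thinning cells to equal reads gave 2 in LECs (571 of all genes). Other LECs had 1 with first plates only (528 of all genes), without cycling cells (261) and with the plate series as covariate (160). Collecting against other LECs had 1 without an expression filter (327) and 1 without cycling cells (214). Mutant 5 and controls alone gave 0 in LECs and 0 in other LECs, a fit with 1 mutant mouse. Leaving out 1 mouse gave 1 to 2 in LECs (153 to 546 of all genes). It gave 1 to 2 in other LECs (227 to 693) and 1 to 2 in collecting against other LECs (221 to 334). The cause was not tested. With the replicate number as a block, edgeR called 0 of the 10 and 3 of all genes, in LECs and in other LECs alike. *Sparc* was at 1.43 (adjusted *p* = 0.155) in LECs and 1.63 (adjusted *p* = 0.133) in other LECs. Only the mice numbered 1 and 2 occur in both groups. Their deviations in LECs had r = -0.0412 and 0.036. With 2 controls, the deviations of control 1 mirror those of control 2, so these values cannot show whether the numbers pair mice. Counts for collecting LECs (0) and for LECs against BECs (7 to 9) stayed within the range of 1.5 times. Of 1360 values of single genes under alternatives, 90 changed sign, all of genes without a call, 0 called values did, 32 called values lost the call and 21 gained one. With 2 controls and 13 to 41 collecting cells per mouse, differences of the order of the SE given could not be detected in collecting LECs.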
